A study of Mus musculus with 25 samples.

Results

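Macrophages recovered in the resident sort of the injured mouse spinal cord were compared with macrophages recovered in the infiltrating sort on the same days. The members were all cells with cell type code 2 in the cell table that the authors deposited, taken from 4 resident-sort and 4 infiltrating-sort libraries at day 2, day 3 and day 10 after injury (D2, D3 and D10). They numbered 3202 cells, 438 from the resident sort and 2764 from the infiltrating sort, out of 12841 cells with that code and 30958 cells in the 25 libraries of the series. Code 2 takes in monocytes as well as macrophages, and its cells are called macrophages below.

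All 8 libraries came from mice labelled Cx3cr1CreERT2:R26tdTomato, in which Cx3cr1 drives a Cre recombinase that acts once induced, and Cre turns on a red reporter (RFP). Cells labelled RFP+/YFP+ formed the resident sort and cells labelled RFP-/YFP+ the infiltrating sort, so both sorts share the same 2 alleles and the injury. The resident sort had 1 male library at D2, 1 female (D3_resident 1) and 1 male library (D3_resident 2) at D3 and 1 female library at D10. The infiltrating sort had 1 library labelled female at D2, 1 male library at D3, and 1 female (D10_infiltrating 1) and 1 male library (D10_infiltrating 2) at D10. Each library pools a lesion segment of 5 mm from 1 to 3 mice, and cells were captured by 3′ droplet RNA-seq after myelin removal and sorting. Age and the timing of Cre induction are not given in the sources used here. Another D3 library (D3_conflict 1) has a title that says infiltrating and a sort label of RFP+/YFP+. It was kept out of the main comparison and its values are given beside the results it touches. Since the library is the replicate and nothing says how the mice were spread over libraries, all p-values measure the spread between these libraries.

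Microglia, the resident macrophages of the cord, express the fractalkine receptor Cx3cr1, live long and renew themselves in place. Blood monocytes also express Cx3cr1 but are replaced from the marrow within weeks, so a reporter switched on earlier stays in long-lived cells and is lost from the blood. Macrophages of the meninges and perivascular spaces, called border macrophages here, are also long-lived and carry Mrc1, Folr2 and Siglec1. After cord injury, monocytes enter the lesion and turn into macrophages that take up myelin lipid, express Gpnmb, Spp1 and Fabp5 and become foamy. The comparison asks whether macrophages that carry the resident colours differ from those that do not.

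Macrophages made up a small share of the resident sort and most of the infiltrating sort. Their share was 10.8% of 1711 cells at D2, 25.2% of 159 and 7.45% of 1060 cells at D3 and 17.3% of 775 cells at D10 in the resident sort. In the infiltrating sort it was 60.2% of 793 cells at D2, 55.6% of 2917 at D3, and 90.3% of 608 and 63.4% of 183 at D10. The groups did not overlap, with means of 15.2% ± 7.81 and 67.4% ± 15.6 (SD, n = 4 libraries each; exact permutation test over 70 arrangements, 2-sided p = 0.0286, the smallest this design allows). Permuted within days, the exact permutation test had p = 0.0556, the smallest that 18 arrangements allow, which does not pass 0.05. Microglia, cell type code 1, filled 67.9% to 91.2% of the resident libraries and 0.378% to 1.64% of 3 infiltrating libraries, but 19.7% of D10_infiltrating 2. The macrophage sums held 355243 to 1584587 UMIs (unique molecular identifiers, counted transcripts) from 40 to 185 cells in the resident sort, and 604811 to 17505265 UMIs from 116 to 1622 cells in the infiltrating sort. Values per gene are given as CPM, the UMIs of the gene scaled to the library's summed macrophage UMIs.

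**Figure D1:**
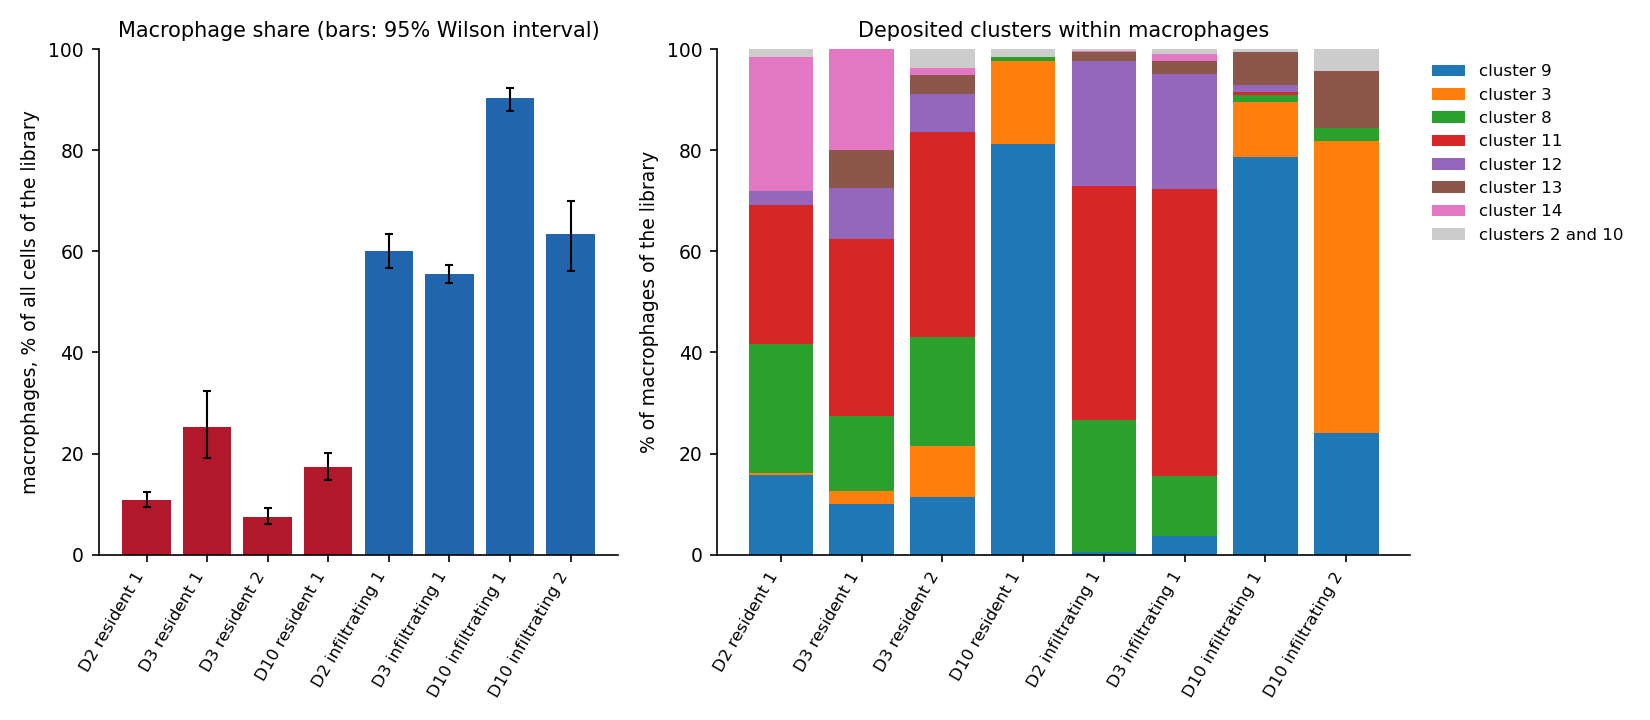
Left, macrophages as a percent of all cells in each library, with 95% Wilson intervals that cover counting error only. Right, the deposited clusters as a percent of the macrophages of each library. The 4 resident libraries lie between 7.45% and 25.2% and the 4 infiltrating libraries between 55.6% and 90.3%. In the right panel, cluster 9 fills 81.3% and 78.7% of the macrophages of the female D10 libraries of the 2 sorts.

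Macrophage markers set the code 2 cells apart from microglia of the same library in 7 of the 8 libraries. Of 14 genes that mark macrophages derived from monocytes (among them Fn1, Lyz2 and Ms4a7), 10 or 11 were at least 2 times as high in macrophages as in microglia in each resident library, and 9 to 12 in 3 infiltrating libraries. All 15 microglia markers (P2ry12, Tmem119, Fcrls and others) were at least 2 times as high in the microglia of every resident library. In the infiltrating libraries, whose microglia numbered 3 at D2, 19 at D3 and 10 and 36 at D10, this held for 7 markers at D2, 14 at D3 and 6 and 8 at D10. In D2_infiltrating 1, 2 of the markers were at least 2 times as high in macrophages. D10_infiltrating 2 went against its label in part: 2 of the 14 macrophage markers were at least 2 times as high in its macrophages and 2 in its microglia. Of its macrophages, 57.8% lay in deposited cluster 3, which carries 9 of 15 microglia markers. Values without this library are given beside the cluster shares and at the end of the gene results. No cell barcode was shared between libraries.

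The clusters that the authors deposited, which carry numbers but no names, were compared as shares of the macrophages of each library. At D2 and D3, the infiltrating sort was made up mainly of clusters 8, 11 and 12, and the resident sort of clusters 8, 11, 9 and, in D2_resident 1 and D3_resident 1, 14. At D10 both sorts were made up mainly of clusters 9 and 3. Cluster 9 (led by Tst, Chchd10, Htr2b and Igf1, with Gpnmb, Fabp4, Fabp5 and Spp1 up) held 15.7% of the D2 resident macrophages, 10% and 11.4% at D3 and 81.3% at D10. Its infiltrating shares were 0.419% at D2, 3.76% at D3 and 78.7% and 24.1% at D10, so it was larger in the resident sort at D2 and D3 and alike in the female libraries of D10. Cluster 12, with 8 of 12 monocyte markers, held 2.7% at D2, 10% and 7.59% at D3 and 0% at D10 in the resident sort. In the infiltrating sort it held 24.7% at D2, 22.8% at D3 and 1.28% and 0% at D10, above the resident libraries of D2 and D3. Cluster 14, led by Mmp12, H2-M2, Ccl4 and Plk2, held 26.5% at D2, 20% and 1.27% at D3 and 0% at D10 in the resident sort, against 0.21%, 1.42%, 0% and 0% in the infiltrating sort. Its cells had a median of 1424 UMIs, 8 of 15 microglia markers were up in it, and it is left unnamed.

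None of the 7 clusters that held at least 1% of these macrophages passed the test between the sorts. The largest mean difference was that of cluster 14, 11.5 percentage points (exact permutation test, 2-sided p = 0.257, adjusted p = 0.933 over 7 clusters), and without D2_resident 1 it was 6.68 points. Cluster 12 was -7.13 points in the resident sort relative to the infiltrating sort (p = 0.4 by the same exact permutation test, adjusted p = 0.933), with -11.2 points without D10_infiltrating 2 and -2.95 without D2_infiltrating 1. Cluster 9 was 2.85 points (p = 0.8 by the exact permutation test, adjusted p = 0.933), and leaving out 1 library turned its sign: it was -14.4 points without D10_resident 1, -5.93 without D2_infiltrating 1, -4.81 without D3_infiltrating 1, 20.2 without D10_infiltrating 1 and 1.98 without D10_infiltrating 2. Cluster 3 was -9.78 points (p = 0.8 by the exact permutation test, adjusted p = 0.933) and turned to 3.75 points without D10_infiltrating 2.

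Across genes, no single gene passed the test between the sorts. edgeR's quasi-likelihood test with time point as covariate called 0 of 8807 genes at a Benjamini-Hochberg adjusted p under 0.05 (0%). At an unadjusted p under 0.05 it had 780 genes (8.86%), of which 434 were higher in the resident sort (4.93%) and 346 lower (3.93%). Whatever their p, 52.9% of the 8807 genes had higher and 47.1% lower resident values. These shares are the background for the gene lists. The smallest adjusted p was 0.0612. DESeq2 on the same sums called 82 genes (0.931%), 53 higher (0.602%) and 29 lower (0.329%). With D3_conflict 1 counted as an infiltrating library, as its title and the authors' code have it, edgeR called 58 of 9087 genes (0.638%), 27 higher (0.297%) and 31 lower (0.341%). With it counted as resident, as its sort label has it, edgeR called 0. The DESeq2 calls and the calls with D3_conflict 1 as infiltrating shared 44 genes, 53.7% of the first list and 75.9% of the second. In 98 genes (1.11%), 69 higher (0.783%) and 29 lower (0.329%), the 4 resident CPM values did not overlap the 4 infiltrating ones. Among the 70 arrangements of 4 against 4 libraries, a share of 0.0286 separates any set of distinct values fully. A lack of overlap alone is therefore not read as a call. The genes below are therefore given as values, with both tools beside them.

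The 5 genes of smallest p with higher resident values were Sparc, Ch25h, Serpinb6a, Gpnmb and Plpp3. Gpnmb (chr6:49036546-49070929, + strand on GRCm38), a glycoprotein of lipid-laden macrophages, was the most abundant of them. It read 1285 CPM at D2, 2548 and 2298 at D3 and 4382 at D10 in the resident sort, against 222 at D2, 1086 at D3 and 1879 and 1265 at D10 in the infiltrating sort. Each day's resident values lay above that day's infiltrating values, and the log2 difference was 1.69 ± 0.28 (SE; edgeR adjusted p = 0.0655). DESeq2 called Gpnmb at an adjusted p of 7.14e-08, Serpinb6a at 0.000129, Sparc at 8.27e-06 and Plpp3 at 0.00267, and did not call Ch25h (adjusted p = 0.114). Serpinb6a (chr13:33917918-34002794, - strand), an intracellular inhibitor of serine proteases, read 53.6 CPM at D2, 47.9 and 80.4 at D3 and 157 at D10, against 14.6 at D2, 26.6 at D3 and 80 and 47.9 at D10. The resident values were again the higher ones on each day, and the log2 difference was 1.48 ± 0.23 (SE; edgeR adjusted p = 0.0612). The order at D3 rests on 1 cell of D3_resident 1, which held 8 of its 17 Serpinb6a UMIs. Without that cell the library read 25.7 CPM, just below D3_infiltrating 1.

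Sparc (chr11:55394500-55423183, - strand), a secreted matrix protein that microglia express strongly, read 10.7 CPM at D2, 16.9 and 14 at D3 and 78.8 at D10 in the resident sort and 3.74 at D2, 2.06 at D3 and 5.45 and 3.31 at D10 in the infiltrating sort. The groups did not overlap, and the log2 difference was 2.98 ± 0.41 (SE; edgeR adjusted p = 0.0612). It is on the microglia list, and in microglia of the resident libraries it read 1411 CPM at D2, 1457 and 905 at D3 and 2608 at D10. At D10, 22 resident cells of cluster 3 read 738 CPM, against 13.7 and 10.7 in the infiltrating cells of that cluster, while cells of cluster 9 read 6.09 against 5.73 and 0. Of the 85 Sparc UMIs of D10_resident 1, 34 came from 1 cell of cluster 2, and without it the library read 47.9 CPM. Plpp3 (chr4:105157347-105232764, + strand), a lipid phosphate phosphatase, read 30.3 CPM at D2, 11.3 and 27.1 at D3 and 50.1 at D10 against 7.64 at D2, 7.54 at D3 and 15.4 and 3.31 at D10. Its log2 difference was 1.87 ± 0.31 (SE, edgeR adjusted p = 0.0655). In D3_resident 1, 2 of 4 Plpp3 UMIs lay in 1 cell, and without it the library read 5.83 CPM, below D3_infiltrating 1. Ch25h (chr19:34473778-34475164, - strand), which makes 25-hydroxycholesterol, read 56.2 CPM at D2, 8.44 and 6.99 at D3 and 51 at D10 against 0 at D2, 1.37 at D3 and 3.96 and 0 at D10, and the log2 difference was 4.24 ± 0.66 (SE; edgeR adjusted p = 0.0612). Ch25h read 0 in 2 infiltrating libraries, so its fitted difference leans on edgeR's prior count. Of the 55 Ch25h UMIs of D10_resident 1, 44 came from 1 cell of cluster 2, and without that cell the library read 10.3 CPM. Without cluster 2 the Ch25h difference was 3.50 (edgeR adjusted p = 0.179). In microglia of the resident libraries Ch25h read 156 CPM at D2, 210.4 and 124 at D3 and 255 at D10; the part of microglial RNA in its difference was not tested.

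The 5 genes of smallest p with lower resident values were Gpat3, Dusp5, Ramp3, Uck2 and Met, all of low abundance. Dusp5 (chr19:53529109-53542431, + strand), a phosphatase that switches off ERK in the nucleus, read 6.94 CPM at D2, 8.44 and 6.99 at D3 and 1.85 at D10 in the resident sort and 21.9 at D2, 34 at D3 and 8.67 and 6.61 at D10 in the infiltrating sort. The resident value was the lower one on each day, and the log2 difference was -1.95 ± 0.29 (SE; edgeR adjusted p = 0.0612). Gpat3 (chr5:100845713-100899102, + strand), an enzyme of triglyceride synthesis, read 15.8 CPM at D2, 25.3 and 18.4 at D3 and 0.927 at D10 against 66.4 at D2, 65.9 at D3 and 1.73 and 1.65 at D10, so the gap lay at D2 and D3; the log2 difference was -1.81 ± 0.27 (SE; edgeR adjusted p = 0.0612). Uck2 (chr1:167222883-167285320, - strand), a uridine-cytidine kinase, read 10.7 CPM at D2, 8.44 and 14 at D3 and 0 at D10 against 80.5 at D2, 39.6 at D3 and 3.47 and 1.65 at D10, and the log2 difference was -2.34 ± 0.38 (SE; edgeR adjusted p = 0.0655). Met (chr6:17463800-17573980, + strand), the hepatocyte growth factor receptor, read 6.94 CPM at D2, 16.9 and 19.2 at D3 and 0.927 at D10 against 33.5 at D2, 66.7 at D3 and 1.73 and 0 at D10, and the log2 difference was -1.90 ± 0.32 (SE; edgeR adjusted p = 0.0655). Ramp3 (chr11:6658521-6677475, + strand), a partner of calcitonin-family receptors, read 1.26 CPM at D2, 0 and 0.874 at D3 and 0 at D10 against 22.6 at D2, 9.54 at D3 and 0.496 and 0 at D10, and the log2 difference was -4.11 ± 0.64 (SE; edgeR adjusted p = 0.0612). DESeq2 called all 5 at adjusted p values of 0.00848 for Dusp5, 0.0107 for Gpat3, 0.00655 for Uck2, 0.0107 for Met and 0.0236 for Ramp3. At D10 the 4 genes other than Dusp5 read 0 to 3.47 CPM in both sorts.

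**Figure D2:**
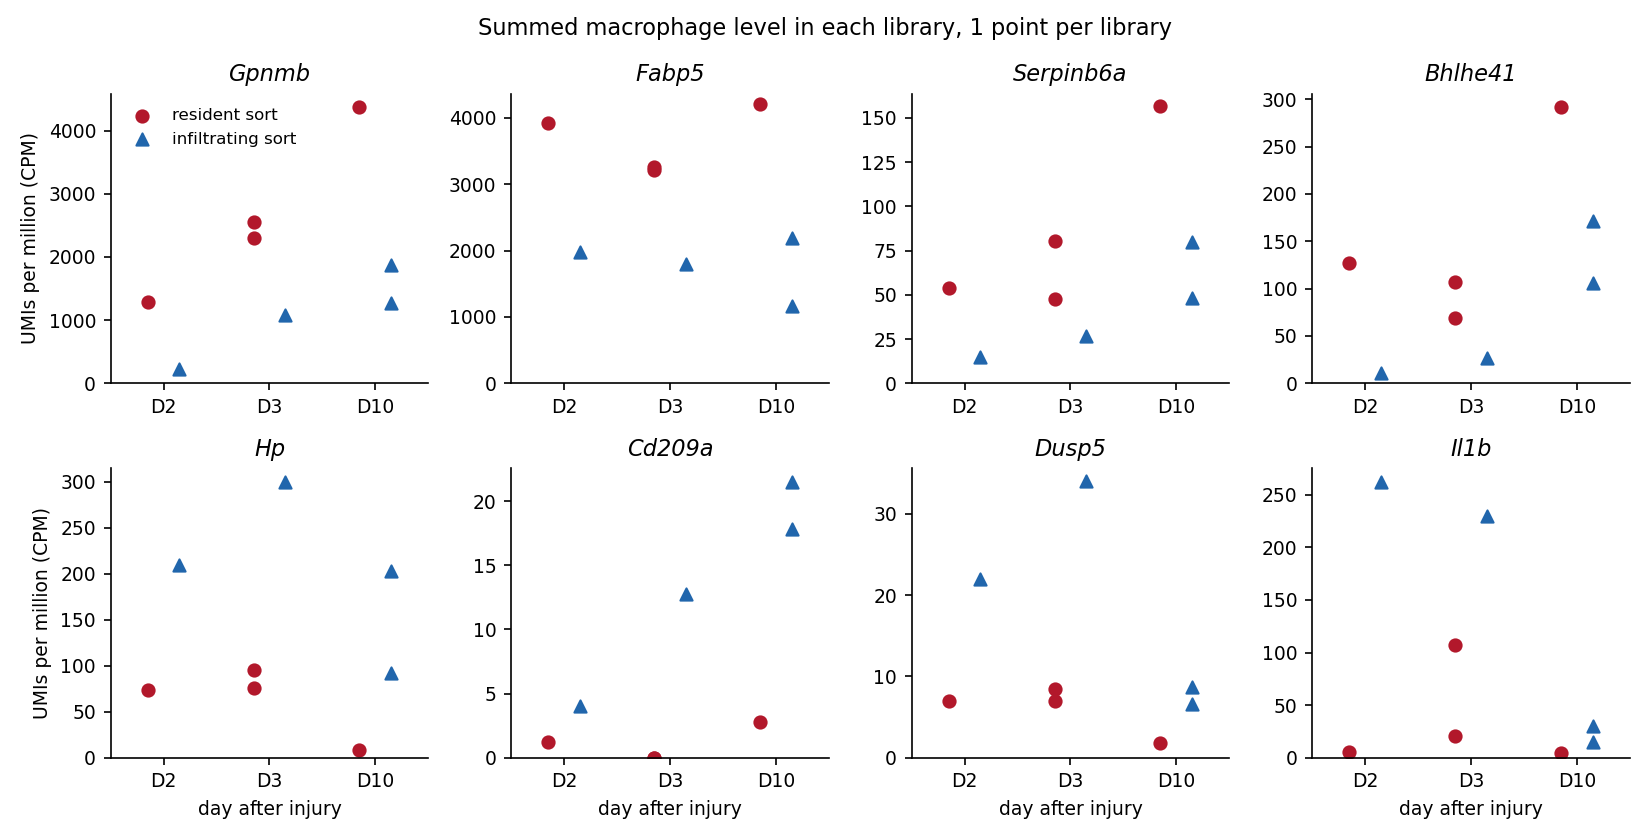
Summed macrophage CPM of 8 genes by day, 1 point per library, on linear axes from 0. Circles are the 4 resident and triangles the 4 infiltrating libraries. Each panel of the upper row has its resident points above the infiltrating points of the same day, and each panel of the lower row below them.

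Monocyte genes had lower resident values in the fit over all days, with a median log2 ratio of -0.80 at D2, -0.59 at D3 and -2.77 at D10. In that fit all 12 tested members of 12 were lower, 7 of them at an unadjusted edgeR p under 0.05 (3.93% of all genes were lower at that level) and 0 past the adjusted threshold. Their median log2 difference was -1.39, beside 0.02 over all genes. The member of highest level, Chil3, a secreted lectin, read 1619 CPM at D2, 2348 and 1736 at D3 and 27.8 at D10 in the resident sort and 2567 at D2, 1625 at D3 and 64.2 and 265 at D10 in the infiltrating sort, with the groups overlapping (log2 difference -0.82 ± 0.59 (SE), edgeR adjusted p = 0.761; DESeq2 adjusted p = 0.779). Plac8, a small cytoplasmic protein of circulating monocytes, read 369.8 CPM at D2, 678 and 516 at D3 and 0 at D10 against 406 at D2, 1095 at D3 and 357 and 473 at D10, with the resident values below those of the same day at D3 and D10 and close at D2 (log2 difference -1.71 ± 0.93 (SE), edgeR adjusted p = 0.667; DESeq2 adjusted p = 0.942). Hp, the haemoglobin scavenger haptoglobin, chosen after its values were seen, read 73.8 CPM at D2, 76 and 95.3 at D3 and 8.35 at D10 against 209 at D2, 300.5 at D3 and 92.2 and 203 at D10. The resident value was below the infiltrating ones on each day (log2 difference -2.17 ± 0.39 (SE), edgeR adjusted p = 0.0758; DESeq2 adjusted p = 8.69e-05).

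Genes of antigen presentation by MHC class II also had lower resident values, with a median log2 ratio of -0.11 at D2 and -1.70 at D10. All 8 tested members of 8 had a negative difference (47.1% of all genes), 5 at an unadjusted edgeR p under 0.05 (3.93% of all genes) and 0 past the adjusted threshold, with a median of -1.08. Cd74, the invariant chain, read 3282 CPM at D2, 2190.1 and 1713 at D3 and 528 at D10 in the resident sort and 3265 at D2, 4842 at D3 and 1266 and 4226 at D10 in the infiltrating sort (log2 difference -1.24 ± 0.45 (SE), edgeR adjusted p = 0.421; DESeq2 adjusted p = 0.162). H2-Aa, the alpha chain of I-A, read 799 CPM at D2, 656 and 442 at D3 and 199 at D10 against 725 at D2, 1514 at D3 and 299 and 1303 at D10 (log2 difference -1.14 ± 0.45 (SE), edgeR adjusted p = 0.48; DESeq2 adjusted p = 0.318). Both genes were level at D2, and their groups overlapped. In D10_resident 1, 551 of 569 Cd74 UMIs lay in 1 cell of cluster 10, and without it the library read 16.9 CPM. For H2-Aa, 203 of 215 UMIs lay in 1 cell of that cluster, and the library read 11.3 CPM without it. D3_conflict 1 read 1589.5 CPM of Cd74 and 442 of H2-Aa, near or below the D3 resident libraries and below D3_infiltrating 1. Cd209a, a lectin of dendritic cells that arise from monocytes, was chosen after its values were seen: it read 1.26 CPM at D2, 0 and 0 at D3 and 2.78 at D10 against 4.08 at D2, 12.7 at D3 and 17.8 and 21.5 at D10, without overlap (log2 difference -3.11 ± 0.58 (SE), edgeR adjusted p = 0.0781; DESeq2 adjusted p = 0.0117). The resident Cd209a values rest on 2 UMIs at D2, 0 and 0 at D3 and 3 at D10. Those of D2 lay in 1 cell, and so did those of D10. Dendritic-like cells (code 3) numbered 0 to 12 in the resident and 31 to 1265 in the infiltrating libraries. The part of dendritic-like cells in these results was not tested.

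Genes of lipid handling and of the lysosome leaned the other way. Of 17 tested lipid genes of 18, 15 had higher resident values and 2 lower, 6 of the higher at an unadjusted edgeR p under 0.05, beside 52.9% and 4.93% of all genes, with a median of 0.38. Apoe, the main lipid carrier protein of the cord, read 8975 CPM at D2, 19454 and 16452 at D3 and 127801 at D10 in the resident sort and 5621 at D2, 7215 at D3 and 111997 and 71968 at D10 in the infiltrating sort, a level set mainly by the day (log2 difference 0.86 ± 0.38 (SE), edgeR adjusted p = 0.546; DESeq2 adjusted p = 0.152). Fabp5, a carrier of fatty acids within the cell, read 3927 CPM at D2, 3220.3 and 3261 at D3 and 4216 at D10 against 1979.8 at D2, 1794 at D3 and 2191 and 1157 at D10. The 4 resident values lay above the 4 infiltrating ones (log2 difference 1.11 ± 0.29 (SE), edgeR adjusted p = 0.186; DESeq2 adjusted p = 0.0107). D3_conflict 1 read 3193 CPM, beside the resident values, and with it as infiltrating the Fabp5 difference was 0.76 (edgeR adjusted p = 0.423). All 14 lysosome genes had higher resident values, 4 at an unadjusted edgeR p under 0.05, with a median of 0.47. Ctss, a protease of the lysosome, read 4472 CPM at D2, 5430.1 and 8266 at D3 and 8925 at D10 against 2171 at D2, 6119.9 at D3 and 6839 and 6567 at D10 (log2 difference 0.54 ± 0.26 (SE), edgeR adjusted p = 0.614; DESeq2 adjusted p = 0.232). Ctsd, another such protease, read 5189 CPM at D2, 4009 and 5640.3 at D3 and 9557 at D10 against 3358 at D2, 3357 at D3 and 8335 and 6065 at D10 (log2 difference 0.55 ± 0.28 (SE), edgeR adjusted p = 0.624; DESeq2 adjusted p = 0.308). Cd68, a lysosomal membrane glycoprotein chosen after its values were seen, did not overlap: it read 1455 CPM at D2, 1481 and 1236 at D3 and 1159 at D10 against 925 at D2, 1054 at D3 and 949 and 800.2 at D10 (log2 difference 0.50 ± 0.23 (SE), edgeR adjusted p = 0.559; DESeq2 adjusted p = 0.202).

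Among 14 markers of macrophages derived from monocytes, 9 had higher and 5 lower resident values, 6 and 2 of them at an unadjusted edgeR p under 0.05 (median 0.45). Lyz2, lysozyme, read 10357 CPM at D2, 17149 and 12162 at D3 and 48616 at D10 in the resident sort and 9873 at D2, 11156 at D3 and 35038 and 24962 at D10 in the infiltrating sort (log2 difference 0.47 ± 0.33 (SE), edgeR adjusted p = 0.752; DESeq2 adjusted p = 0.793). Spp1, osteopontin, read 26389.8 CPM at D2, 21759.8 and 16705 at D3 and 12744 at D10 against 18839 at D2, 10708 at D3 and 9030.2 and 3999.6 at D10 (log2 difference 0.83 ± 0.36 (SE), edgeR adjusted p = 0.534; DESeq2 adjusted p = 0.312). Both were higher in the resident sort within each day at the mean, but the groups overlapped over all days. Of 14 genes that mark cells of marrow origin rather than microglia, 10 had lower resident values, 7 at an unadjusted edgeR p under 0.05, and 4 higher. Ccr2, the receptor that brings monocytes out of the marrow, read 159 CPM at D2, 312 and 600.4 at D3 and 2.78 at D10 against 442 at D2, 563 at D3 and 80.3 and 342 at D10 (log2 difference -1.84 ± 0.81 (SE), edgeR adjusted p = 0.546; DESeq2 adjusted p = 0.573), so D3_resident 2 read as high as any infiltrating library.

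Border macrophage genes were split. Of 10 tested members of 12, 6 had higher resident values, near the 52.9% of all genes, 5 at an unadjusted edgeR p under 0.05 (Mrc1, Cd163, Cbr2, Folr2 and Siglec1), and 4 lower, 2 at that level (F13a1 and Ccl24). Pf4, a platelet chemokine and the member of highest level, read 608 CPM at D2, 50.7 and 945 at D3 and 24.1 at D10 in the resident sort and 1209 at D2, 229 at D3 and 19.6 and 38 at D10 in the infiltrating sort, with no common direction (log2 difference 0.10 ± 0.76 (SE), edgeR adjusted p = 0.998; DESeq2 adjusted p = 0.999). Mrc1, the mannose receptor, read 158 CPM at D2, 16.9 and 62.9 at D3 and 13 at D10 against 33.6 at D2, 20.5 at D3 and 2.48 and 6.61 at D10 (log2 difference 1.73 ± 0.32 (SE), edgeR adjusted p = 0.0781; DESeq2 adjusted p = 0.0181). Its highest value was that of D2_resident 1, where 29 cells of cluster 9 read 517 CPM and 47 cells of cluster 8 194. Without cells holding a UMI of any of 5 microglia genes, named below, the Mrc1 difference was 0.17 (edgeR adjusted p = 0.914). Folr2, a folate receptor, read 29 CPM at D2, 2.81 and 41.9 at D3 and 10.2 at D10 against 1.87 at D2, 5.37 at D3 and 2.48 and 4.96 at D10 (log2 difference 2.71 ± 0.52 (SE), edgeR adjusted p = 0.0781; DESeq2 adjusted p = 0.0126). Siglec1, a receptor for sialic acid, read 33.4 CPM at D2, 50.7 and 44.6 at D3 and 18.5 at D10 against 7.47 at D2, 28.4 at D3 and 11.6 and 13.2 at D10 (log2 difference 1.16 ± 0.25 (SE), edgeR adjusted p = 0.105; DESeq2 adjusted p = 0.0476). Mrc1, Folr2 and Siglec1 were chosen after their values were seen. On each day the mean resident value of these 3 genes was above the mean infiltrating value. For Mrc1 and Folr2, however, D3_resident 1 lay below D3_infiltrating 1, and its Folr2 value was 1 UMI. In microglia of the resident libraries Folr2 read 17.6 to 55 CPM, Siglec1 5.96 to 10.6 and Mrc1 0 to 4.49. The part of microglial RNA in these differences was not tested.

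Microglia genes went in both directions. Of 12 tested members, 8 had higher and 4 lower resident values, 2 (Sall3 and Sparc) and 1 (Selplg) at an unadjusted edgeR p under 0.05 (median log2 difference 0.61). Summed over its 15 genes, the list read 961 CPM at D2, 1044 and 1149 at D3 and 2242 at D10 in resident macrophages, and 417 at D2, 769.5 at D3 and 3545 and 3492 at D10 in infiltrating ones. Microglia of the resident libraries read 12506 to 17050.3, and dendritic-like and neutrophil-like cells of the same libraries 619 to 2558. The level in resident macrophages lay within that range at D2 and D3, and at D10 it was below both infiltrating libraries. Fcrls, a receptor-like protein of microglia, read 198 CPM at D2, 22.5 and 107 at D3 and 291 at D10 against 3.74 at D2, 33.3 at D3 and 612 and 689 at D10 (log2 difference 1.46 ± 0.97 (SE), edgeR adjusted p = 0.739; DESeq2 adjusted p = 0.959). The part of microglial RNA in the gene differences was not tested. A fit was also run without cells holding a UMI of P2ry12, Tmem119, Siglech, Sall1 or Fcrls. It cannot separate that part, since the filter depends on the UMIs of a cell and also drops macrophages. Cluster 9 cells of D10_infiltrating 1 and 2 read 691 and 1000 CPM of Fcrls. With the filter, edgeR called 58 of 7587 genes, 18 higher and 40 lower. Gpnmb was among them (1.83, edgeR adjusted p = 0.0292). Other differences shrank: besides Mrc1, as given above, Ccl3 went from 1.61 to 0.91 (edgeR adjusted p = 0.418). Sparc, Ch25h, Ramp3 and Folr2 did not pass the filter on low counts there, and Fcrls could not, since all cells with its UMIs were left out.

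**Figure D3:**
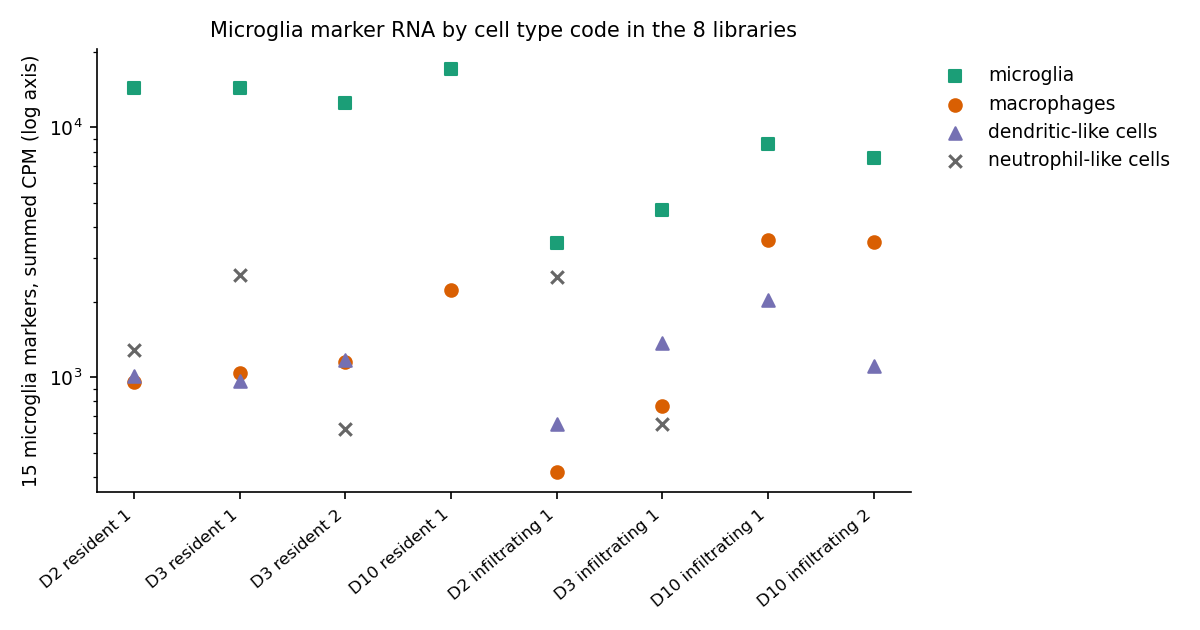
Summed CPM of 15 microglia markers on a log axis, by cell type code, in the 8 libraries. Macrophages lie between 417 and 3545 CPM and microglia of the resident libraries between 12506 and 17050, with the highest macrophage values in the 2 infiltrating libraries of D10.

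Chemokine ligands, which draw other leukocytes, went in both directions. Of 16 tested ligands, 6 had higher resident values, 3 at an unadjusted edgeR p under 0.05 (Ccl3, Ccl4 and Ccl12), and 10 lower, 7 at that level (Ccl5, Ccl6, Ccl9, Ccl24, Cxcl2, Cxcl3 and Cxcl9). Ccl2, which attracts monocytes through Ccr2 and was the member of highest level, read 2317 CPM at D2, 1534 and 1280.3 at D3 and 141 at D10 in the resident sort and 4504 at D2, 2105 at D3 and 44.4 and 59.5 at D10 in the infiltrating sort (log2 difference 0.10 ± 0.40 (SE), edgeR adjusted p = 0.991; DESeq2 adjusted p = 0.999). In D10_resident 1, 109 of 152 Ccl2 UMIs came from 1 cell of cluster 2, and without it the library read 40.3 CPM. Ccl6 read 1159 CPM at D2, 324 and 1122 at D3 and 15.8 at D10 against 5485 at D2, 932 at D3 and 159 and 311 at D10 (log2 difference -2.03 ± 0.68 (SE), edgeR adjusted p = 0.36; DESeq2 adjusted p = 0.235), and D2_infiltrating 1 stood far above the rest. The next genes were chosen after their values were seen. Ccl3, a ligand of Ccr1, read 357 CPM at D2, 90.1 and 46.3 at D3 and 269 at D10 against 131 at D2, 35.6 at D3 and 55.3 and 47.9 at D10 (log2 difference 1.61 ± 0.28 (SE), edgeR adjusted p = 0.0658; DESeq2 adjusted p = 0.00157). Of the 290 Ccl3 UMIs of D10_resident 1, 238 came from 1 cell of cluster 2, and without that cell the library read 48.8 CPM. In D3_resident 2, 23 of 53 lay in 1 cell of cluster 11, and without it the library read 26.7 CPM, below D3_infiltrating 1. In D2_resident 1, 493 of 565 Ccl3 UMIs came from the 49 cells of cluster 14. Without cluster 2 the Ccl3 difference was 0.77 (edgeR adjusted p = 0.436), and its order turned within some clusters, as given below. Cxcl2, which attracts neutrophils, read 95.3 CPM at D2, 5.63 and 42.8 at D3 and 0 at D10 against 925 at D2, 104 at D3 and 1.24 and 0 at D10 (log2 difference -2.56 ± 0.51 (SE), edgeR adjusted p = 0.0802; DESeq2 adjusted p = 0.341). Il1b, the inflammatory cytokine interleukin-1 beta, read 5.68 CPM at D2, 107 and 21 at D3 and 4.64 at D10 against 262 at D2, 230 at D3 and 30 and 14.9 at D10, with the resident values below the infiltrating ones on each day (log2 difference -3.12 ± 0.71 (SE), edgeR adjusted p = 0.127; DESeq2 adjusted p = 0.159). In D3_resident 1, the highest of the resident values, 27 of 38 UMIs lay in 1 cell. Neutrophil-like cells (code 4) numbered 3 to 14 in the D2 and D3 resident libraries, 223 in D2_infiltrating 1 and 11 in D3_infiltrating 1; their part in these values was not tested.

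Of the lineage factors and TGF-beta pathway genes listed, which include the receptors Tgfbr1 and Tgfbr2, 8 of 17 tested had higher and 9 lower resident values. Cebpb, a factor of monocytes and of acute inflammation and the member of highest level, read 1303 CPM at D2, 1385 and 1013 at D3 and 297 at D10 in the resident sort and 2983 at D2, 1896 at D3 and 545 and 522 at D10 in the infiltrating sort (log2 difference -0.83 ± 0.27 (SE), edgeR adjusted p = 0.328; DESeq2 adjusted p = 0.0463). Bhlhe41, a basic helix-loop-helix repressor of tissue macrophages chosen after its values were seen, read 127 CPM at D2, 107 and 69 at D3 and 292 at D10 against 10.9 at D2, 27 at D3 and 171 and 106 at D10, with the resident values higher on each day (log2 difference 1.97 ± 0.36 (SE), edgeR adjusted p = 0.0781; DESeq2 adjusted p = 0.000316). Also named after their values were seen are 3 more genes, Igf1, Timp2 and Cdo1, with the same order on each day. In microglia of the resident libraries Bhlhe41 read 117 to 289 CPM, Igf1 40.9 to 346 and Timp2 808 to 1964. Cdo1 read 0 to 8.43 CPM in those microglia. The part of microglial RNA in these differences was not tested. Igf1, an insulin-like growth factor, read 46.1 CPM at D2, 33.8 and 78.7 at D3 and 224 at D10 against 7.47 at D2, 18.6 at D3 and 154 and 107 at D10 (log2 difference 1.61 ± 0.32 (SE), edgeR adjusted p = 0.0802; DESeq2 adjusted p = 0.00408), but 6 of the 12 UMIs of D3_resident 1 lay in 1 cell, without which it read 17.9 CPM, below D3_infiltrating 1. Timp2, an inhibitor of matrix metalloproteases, read 232 CPM at D2, 301 and 226 at D3 and 1101 at D10 against 34.6 at D2, 121 at D3 and 713 and 465 at D10 (log2 difference 1.52 ± 0.31 (SE), edgeR adjusted p = 0.0815; DESeq2 adjusted p = 0.00157). Cdo1, the enzyme that oxidises cysteine, read 10.7 CPM at D2, 28.1 and 57.7 at D3 and 223 at D10 against 0.34 at D2, 2.57 at D3 and 80.8 and 23.1 at D10 (log2 difference 3.18 ± 0.54 (SE), edgeR adjusted p = 0.0655; DESeq2 adjusted p = 2.09e-06), but all 10 of its UMIs in D3_resident 1 lay in 1 cell.

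The remaining lists held no gene past the adjusted edgeR threshold. Of 12 cytokine genes, 5 had higher and 7 lower resident values, 1 and 4 at an unadjusted edgeR p under 0.05 (median -0.10). Matrix, protease and coagulation genes were lower in 8 of 13 (median -0.34, 4 of the lower and 1 of the higher at that level). Chemokine receptors were higher in 4 of 7, metallothionein and heme genes in 7 of 12, alternative activation genes in 1 of 6 and dendritic cell genes in 1 of 4. Of 11 interferon-stimulated genes, 6 had higher and 5 lower resident values, 0 at an unadjusted edgeR p under 0.05; their median log2 ratio was 1.98 at D2, -0.70 at D3 and -0.51 at D10. Immediate early genes were lower in 10 of 11 (median -0.35, 2 at an unadjusted edgeR p under 0.05). Genes of glycolysis and hypoxia were lower in 11 of 12 (median -0.35, 2 at that level). Complement and Fc receptor genes were higher in 7 of 12 (median 0.08), and integrin and adhesion genes in 5 of 14 (median -0.20). DNA replication genes were higher in 5 of 9 and mitosis genes in 1 of 7. Markers of neutrophils, lymphocytes, neural cells, vessel and fibroblast cells and erythroid cells were mostly filtered out, with 2, 1, 4, 3 and 0 members tested, and 0 passed the adjusted threshold of edgeR.

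**Figure D4:**
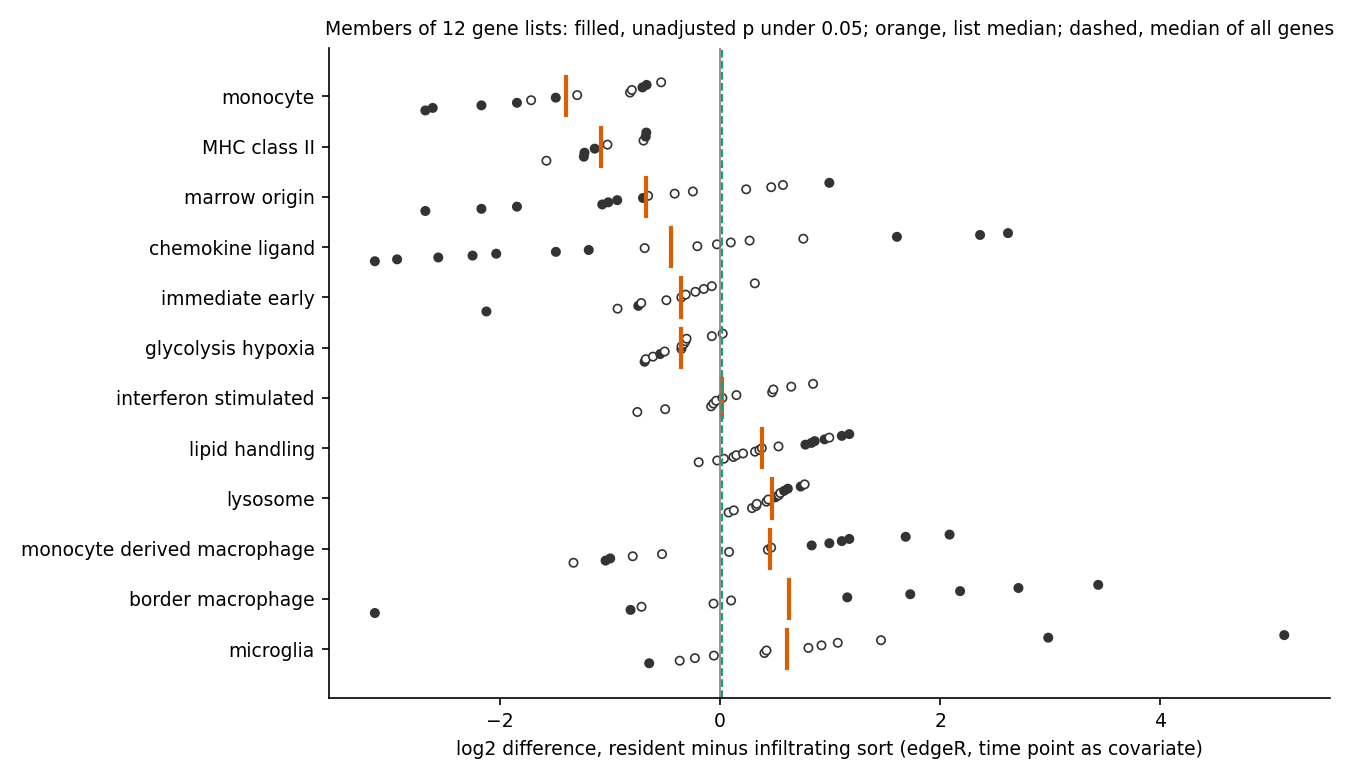
Log2 difference (resident minus infiltrating sort) of each tested member of 12 gene lists. Filled points have an unadjusted edgeR p under 0.05, orange bars are list medians and the dashed line is the median of all 8807 genes. The monocyte and MHC class II members all lie left of 0 and the lysosome members all right of 0, and no point passes the adjusted threshold.

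A sum over macrophages mixes the make-up of clusters with the level per cell, and in the sums alone these cannot be told apart, so the same genes were read within clusters that held at least 20 cells of a library. In cluster 11 at D2, Gpnmb read 2109.7 CPM in 51 resident cells and 416 in 221 infiltrating cells. At D3 it read 1355 in 32 cells of D3_resident 2 and 1558 in 921 cells of D3_infiltrating 1, so the order of the sums held within the cluster at D2 and not at D3. Hp read 156 and 131 in those resident cells, and 83.1 and 165 in the infiltrating cells, higher in the resident cells at D2 and lower at D3. In cluster 8 at D2, 47 resident cells read 6.11 CPM of Hp and 125 infiltrating cells 84.9, so its order differed between clusters. Gpnmb read 940.4 against 73.8 in those cells of cluster 8 and Fabp5 2878 against 1107, in the order of the sums. In cluster 12, which held 2.7% to 10% of the D2 and D3 resident macrophages and 22.8% to 24.7% of the infiltrating ones, Hp read 578 and 881 in the infiltrating libraries. Il1b kept its order within cluster 11, with 7.69 and 6.14 CPM in resident cells and 147 and 71.8 in infiltrating cells, and in cluster 8 at D2, with 0 against 208. Fabp5 read 6515 against 3499 CPM in cluster 11 at D2 and 2388 against 2730.4 at D3, so it too lost its order at D3. Ccl3 was lower in resident cells at D2, with 69.2 against 149.9 in cluster 11 and 41.2 against 175 in cluster 8, and higher at D3 in cluster 11, with 75.7 against 40.9. That D3 order rests on few cells, since 23 of the 37 Ccl3 UMIs of those 32 resident cells lay in 1 cell. Ccl3 was among the leading genes of cluster 14, which held 26.5% of the D2 resident macrophages, and without that cluster its difference in the sums was 0.89 (edgeR adjusted p = 0.713). Restricted to clusters 8, 11 and 12 at D2 and D3, edgeR called 0 of 7985 genes, and 513 had an unadjusted p under 0.05. The Ccl3 difference there was -0.43.

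At D10, clusters 9 and 3 were large enough in both sorts to be read alone. In cluster 9, Gpnmb read 4480.2 CPM in 109 resident cells, against 2070 and 1749.5 in 432 and 28 infiltrating cells. Fabp5 read 4333 against 2365 and 1301, and Serpinb6a 165 against 81.8 and 44.4. Cd74 read 17.2 against 583 and 1079, and H2-Aa 12.2 against 156 and 330.2. Il1b read 3.04 against 7.24 and 24.6. All 6 genes kept the order of the sums. Hp read 9.13 against 8.15 and 14.8, without a gap, and Ccl3 turned, with 30.4 against 60.3 and 88.7. In cluster 3 at D10, with 22 resident cells, Gpnmb read 4923 against 2425 and 1411, while Il1b turned, with 32.8 against 0 and 10.7. All macrophages of D10_resident 1 held 5 Il1b UMIs, of which 2 lay in 1 cell of cluster 3. No test is given within clusters 9 and 3, since D10 has 1 resident library.

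**Figure D5:**
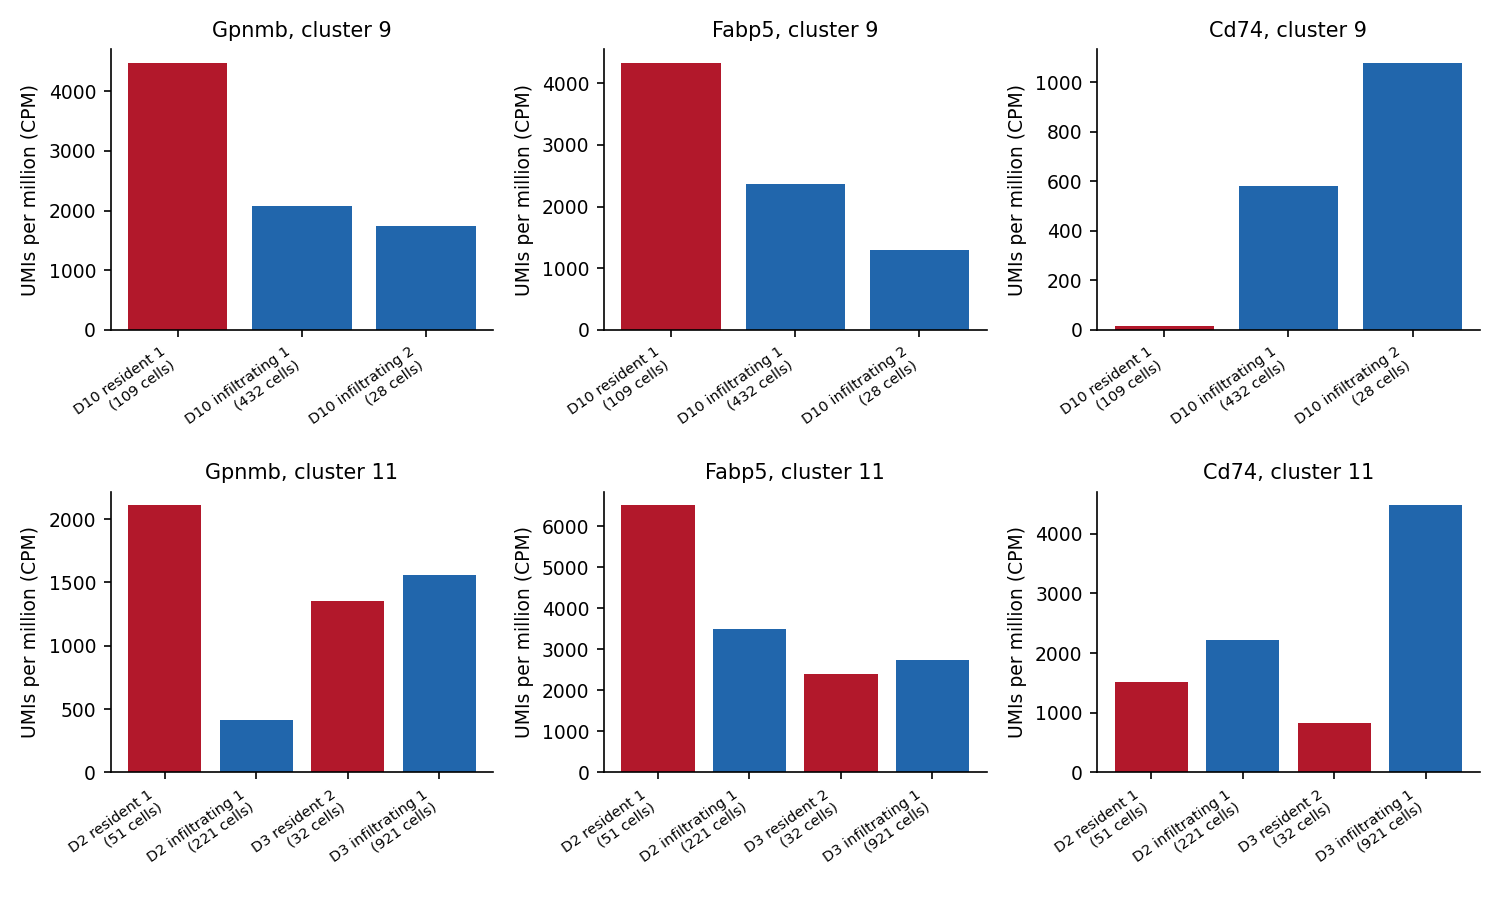
CPM of Gpnmb, Fabp5 and Cd74 within cluster 9 at D10 (upper row) and cluster 11 at D2 and D3 (lower row), 1 bar per library with its number of cells. In cluster 9 the resident bar is above both infiltrating bars for Gpnmb and Fabp5 and below them for Cd74, while in cluster 11 Gpnmb and Fabp5 are lower in the resident library at D3.

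Whether the difference between the sorts changed with time was asked with an interaction term for D10 against D2 and D3. edgeR called 3 of 9485 genes (0.0316%), 2 with a lower resident value at D10 than the earlier days lead to (0.0211%) and 1 with a higher one (0.0105%), and had 386 at an unadjusted p under 0.05 (4.07%), 143 higher (1.51%) and 243 lower (2.56%). DESeq2 called 25 (0.264%), 5 higher (0.0527%) and 20 lower (0.211%). Plac8 (chr5:100553725-100572245, - strand) was at 0 of 1078356 UMIs in the D10 resident macrophages. Counting error alone allows up to 2.78 CPM, a limit that takes UMIs as independent and leaves out the spread between cells and libraries. In D2_resident 1, 100 of 586 Plac8 UMIs lay in 1 cell. In D10_infiltrating 1 and 2 Plac8 read 357 and 473 CPM. At D2 and D3 both sorts carried it, as given above (edgeR adjusted p of the interaction = 0.00203). Ly6c2, the surface antigen of inflammatory monocytes, had the same pattern without passing the threshold: 357 CPM at D2, 267 and 369.7 at D3 and 0 at D10 in the resident sort, against 104 at D2, 464 at D3 and 74.1 and 122 at D10 (edgeR adjusted p of the interaction = 0.059). No D10 resident macrophage lay in clusters 12 or 13, the clusters with monocyte markers (0 of 134 cells), whereas cluster 13 held 6.56% and 11.2% of the D10 infiltrating macrophages. Counting error alone allows a share of up to 2.24% in D10_resident 1, and the spread between libraries is not covered.

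Ltc4s (chr11:50236461-50238616, - strand), the enzyme that makes leukotriene C4, was higher in the resident sort at D2 and D3 and below both infiltrating libraries at D10: it read 41.7 CPM at D2, 177 and 189 at D3 and 46.4 at D10, against 4.42 at D2, 22.6 at D3 and 75.8 and 67.8 at D10 (interaction -3.76 ± 0.45 log2, SE, edgeR adjusted p = 0.00865). In D3_resident 1, 62 of 63 Ltc4s UMIs lay in 1 cell, and without it the library read 2.97 CPM. Ccl12 (chr11:82101845-82103400, + strand), a chemokine of the Ccr2 family of ligands, read 392 CPM at D2, 67.6 and 114 at D3 and 801 at D10 in the resident sort, against 96 at D2, 59.5 at D3 and 22.8 and 23.1 at D10 (interaction 3.88 ± 0.48 log2, SE, edgeR adjusted p = 0.00987). This call rests on 1 cell of cluster 2, which held 859 of the 864 Ccl12 UMIs of D10_resident 1. Without that cell the library read 4.69 CPM, below both D10 infiltrating libraries, and without cluster 2 the interaction turned to -3.31 (edgeR adjusted p = 0.249). edgeR then called 2 of 9475 genes, Plac8 (adjusted p = 0.00189) and Ltc4s (adjusted p = 0.00839). Lyz1, a second lysozyme, and Atp6v0d2, a subunit of the vacuolar proton pump, were next and did not pass: in the D10 resident library they read 119 and 135 CPM, against at most 26.4 and 34.9 in any other of the 8 (edgeR adjusted p = 0.0739 and 0.102). Of the 128 Lyz1 UMIs there, 65 lay in 1 cell. Every interaction rests on 1 resident library at D10. Without D10_infiltrating 1, Ltc4s had an adjusted p of 0.0846 and Ccl12 of 0.222, and without D10_infiltrating 2 Ccl12 had 0.203 (edgeR), while the count of calls reached 47 without D3_infiltrating 1, 32 without D2_resident 1, 30 without D2_infiltrating 1 and 10 without D3_resident 2.

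Sort was mixed with sex and with the authors' sequencing pool, so the pairs of libraries that share day, sex and pool were read side by side, with no test. They are the male D3 libraries (D3_resident 2 and D3_infiltrating 1) and the female D10 libraries (D10_resident 1 and D10_infiltrating 1). The log2 ratio of CPM, with 5 CPM added to each, was 1.08 at D3 and 1.22 at D10 for Gpnmb. It was 0.86 and 0.94 for Fabp5. For Bhlhe41 it was 1.21 and 0.76, and for Cdo1 3.05 and 1.41. For Hp it was -1.61 and -2.86 and for Il1b -3.18 and -1.86. These 6 genes were chosen after their values were seen. Of the 40 genes named for the sort comparison, 35 had the same sign in both pairs, but they were named from values of the same libraries, and over all 8807 genes tested 50.1% had. The 5 named genes that did not had ratios of 0.10 and -1.08 for Chil3, 1.55 and -1.06 for Fcrls, 0.09 and -3.45 for Ccr2, -0.71 and 1.56 for Ccl2 and 0.27 and -2.98 for Ccl6. Set against D3_resident 1, D3_conflict 1, of the same day, sex and pool, gave 1.36 for Gpnmb, 0.01 for Fabp5, -2.61 for Hp and -0.62 for Il1b. D3_conflict 1 held 62.3% macrophages and 0.211% microglia, in the range of the infiltrating libraries for the first and below it for the second.

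With the pool as a term, edgeR called 9 of 9485 genes, 8 higher and 1 lower, with 1 residual degree of freedom. Among them were Sparc (log2 difference 3.46, adjusted p = 0.00417), Mrc1 (1.93, adjusted p = 0.0214), Folr2 (2.88, adjusted p = 0.0214) and Il1b (-3.11, adjusted p = 0.00417). Ch25h (3.24, adjusted p = 0.0141) and Plpp3 (1.87, adjusted p = 0.0256) were also among them. Other differences were smaller in that fit and did not pass: Gpnmb (1.26, adjusted p = 0.6), Uck2 (-1.47, adjusted p = 0.363), Cxcl2 (-1.15, adjusted p = 0.6) and Bhlhe41 (1.14, adjusted p = 0.228). With sex as a term it called 2, Sparc and Il1b. D2_infiltrating 1 is labelled female but has the code of the male libraries in the deposited cell table. With that code as the term edgeR called 1 gene, Mrc1 (1.98, adjusted p = 0.0363), while Sparc had an adjusted p of 0.128 and Il1b of 0.0691. Leaving out D3_resident 2, the count rose to 15 (6 higher and 9 lower), led by Cxcl2; leaving out any other library gave 0 to 2. Without D10_infiltrating 2 edgeR called 0, and the log2 difference was 1.60 for Gpnmb, 0.94 for Fabp5, -2.01 for Hp, -0.89 for Cd74, -0.72 for H2-Aa and -0.41 for Chil3.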

How the data were processed

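Unnormalized UMI counts of single cells, 1 matrix a library, and a table of codes for pool, cluster and cell type were deposited by the authors. Cell Ranger 3.1.0 and GRCm38 (mm10) are named in the submitters' processing notes. The percent of mitochondrial UMIs per cell is as deposited. The cell filters are not given in the sources used here. Coordinates are from GENCODE M21. Counts were summed over code 2 cells per library. The main fit was edgeR 4.0.16 in R 4.3.3 (TMM, filterByExpr, quasi-likelihood, time point as covariate, Benjamini-Hochberg adjustment, 2-sided), and DESeq2 1.42.0 was an alternative. Both were run on simulated counts with no day effect and the same dispersion for all genes. These data differ in both respects, so the simulation does not vouch for the fit here. All 8 sums entered, whatever their number of cells. Shares were tested by exact permutation. Lists are given by counts and medians alone. Doublets were not called, and ambient RNA was not removed. The red and yellow reporters, Xist and Y-linked genes were not analysed here, so the sort was checked by the microglia share. Genes were named by a rule: the 5 of smallest p in each direction where none passed, the list members of highest level, and the 3 of smallest p in each direction for the D10 interaction. Some genes that the rule names are not reported here. Others are said to be chosen after their values were seen. Members and lists were chosen with earlier results of these data known.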

Additional observations from a re-analysis of the deposited data

Results flagged for a closer look

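In groups of 4, some libraries stood apart from the other 3, by a rule that chance meets in about 1 in 20 groups. D10_resident 1 did so among the resident libraries for the share of cluster 9 (81.3%), Sparc (78.8 CPM), Apoe (127801 CPM) and Timp2 (1101 CPM). It is the only resident library of D10. D3_resident 1, the smallest sum, stood apart for Il1b (107 CPM, with 27 of 38 UMIs in 1 cell), and D3_resident 2 for its median of 15416 UMIs per macrophage, where the other 3 had 7454 to 8735.

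Among the infiltrating libraries, D3_infiltrating 1 stood apart for a median mitochondrial share of 0.215%, the share of cluster 14 (1.42%), Plac8 (1095 CPM) and Ly6c2 (464 CPM). D2_infiltrating 1 did so for Ctss (2171 CPM, the low end), Ccl6 (5485 CPM) and Cxcl2 (925 CPM).

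The difference between the sorts was not the same at D10 as at D2 and D3 for 3 genes in edgeR's interaction test: Plac8 (-13.51 log2, a fitted value that depends on the prior count, since D10_resident 1 read 0), Ltc4s (-3.76) and Ccl12 (3.88). The Ccl12 value rests on 1 cell of D10_resident 1, which held 859 of 864 UMIs, and turned to -3.31 without cluster 2.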

How the results depend on the processing

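The sort comparison had 0 genes past the threshold with edgeR. The count stayed 0 with median-of-ratios scaling, without the time covariate, with at least 20 or 50 cells, with D3_conflict 1 as resident, and without clusters 2, 3 or 14. It was 82 with DESeq2, 58 with D3_conflict 1 as infiltrating, 58 without cells with microglial UMIs, 50 in cluster 9 alone (1 resident library at D10 and 1 residual degree of freedom, so not read as calls), 381 of 14025 without the filter on low counts, 12 without the dividing clusters 6, 7 and 10, 11 at equal depth, 9 with the pool as a term, 2 with sex as a term, 1 with the sex code of the cell table, 1 without D2 and 0 to 15 leaving out 1 library, where lone libraries are assumed to vary like the rest. The D10 interaction had 3 genes, 25 with DESeq2, 2 without cluster 2 and 2 to 47 leaving out 1 library, and could not be fitted without D10_resident 1. The alternatives without clusters 2, 3 and 14 (cluster 2 also for the interaction), the early clusters alone, the sex code and the matched pairs were chosen after seeing the data. The fit with the pool as a term also had 1 residual degree of freedom, and its count is not read as calls.

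The macrophage share differed by -52.2 percentage points, and permuted within days it had p = 0.0556 (exact permutation test), the smallest the 18 arrangements allow. Leaving out 1 library gave -56.1 to -44.5 points. Cluster shares leaving out 1 library ran from -14.4 to 20.2 points for cluster 9, -8.85 to 10.1 for cluster 11, -11.2 to -2.95 for cluster 12, 1.95 to 10.4 for cluster 8, 6.68 to 15.5 for cluster 14, -4.20 to -0.722 for cluster 13 and -15.5 to 3.75 for cluster 3, the last without D10_infiltrating 2, and with D3_conflict 1 as resident cluster 9 was at -2.31 and cluster 11 at 3.48. No paired analysis was possible because the labels of these groups carry no replicate numbers shared between the sorts. The pairs matched on day, sex and pool were read without a test, since only 2 exist.

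Of 46 single-gene results, all log2 differences, those not listed here kept their sign in every alternative run, except that Ltc4s and Ccl12 lost their call as given above. In clusters 8, 11 and 12 at D2 and D3 the sign turned for Chil3 at 0.28, Ccl2 at -0.46, Ly6c2 at 0.76 and Ccl3 at -0.43. Without the time point as covariate the sign turned for Apoe at -0.21, Chil3 at 0.29, Fcrls at -1.22, Ccl2 at -0.42, Pf4 at -0.0448 and Ly6c2 at 0.38. In cluster 9 alone the sign turned for Chil3 at 0.13, Fcrls at -1.52, Ccl2 at -0.0215, Cebpb at 0.27, Pf4 at -0.32 and Ccl3 at -1.10. It also turned with D3_conflict 1 as infiltrating for Ccl2 at -0.18, at equal depth for Ccl2 at -0.00723 and Pf4 at -0.0242, without cells with microglial UMIs for Ccl2 at -0.57 and Pf4 at -0.0253, with the sex code for Ccl2 at -0.0601, and without cluster 2 for Ccl2 at -0.56 and the Ccl12 interaction at -3.31. Leaving out 1 library at a time, differences whose sign turned ran, on the log2 scale, for Ccl2 from -0.73 to 0.54, Pf4 from -1.03 to 0.82 and Ly6c2 from -1.73 to 0.43. Others kept their sign but moved: Fcrls from 0.0595 to 2.72, Chil3 from -1.61 to -0.0975, Ccr2 from -3.01 to -0.80, Plac8 from -2.88 to -0.54, Il1b from -4.76 to -1.98, Ccl6 from -3.04 to -1.21, Cxcl2 from -3.61 to -1.61, Cd74 from -1.70 to -0.73, H2-Aa from -1.58 to -0.72, Apoe from 0.49 to 1.05, Lyz2 from 0.27 to 0.70, and the interactions of Atp6v0d2 from 2.64 to 6.05 and Lyz1 from 2.26 to 3.996. The depth of the smallest sum, 355243 UMIs from 40 cells, limits the precision for genes of low level.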

Other observations

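D3_conflict 1, which the labels put in no group, held 2367 macrophages and 24430140 macrophage UMIs, more than any library of the comparison. Its macrophages read 989 CPM of Gpnmb, 14.9 of Bhlhe41, 5.89 of Mrc1, 490.2 of Hp and 167 of Il1b. Each of these 5 values was nearer to D3_infiltrating 1 than to the mean of the D3 resident libraries. For Fabp5 (3193 CPM), Cd74 (1589.5 CPM) and Spp1 (21347 CPM), it was nearer to the resident mean.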
